A study of Homo sapiens with 2 samples.

Results

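The imprinted 14q32 cluster is a run of microRNA (miRNA) hairpins in the DLK1-MEG3 domain of human chromosome 14. Its members were taken by name, as both arms of 49 hairpins from hsa-mir-493 to hsa-mir-656. The count table held rows for 24 of these hairpins, 47 rows and 47 mature miRNAs in all, out of 2121 rows. The other 25 hairpins, among them the mir-376 group, mir-154, mir-485, mir-377 and mir-656, had no row and were not analysed here. Levels come from small-RNA sequencing of 2 libraries, 1 from MDA-MB-468 and 1 from BT474, both human breast cancer lines. MDA-MB-468 is triple-negative, described as ER-, PR- and HER2-, and was grown in DMEM. BT474 is described as ER+ and was grown in RPMI-1640. Both media held serum and antibiotics, and stem-enriched cells of both lines were sorted on the surface markers CD24 and CD44, by a gate that is not given in the sources used here. Each group is 1 library of 1 established line, and no added allele or agent is named for either. Unsorted cells were not analysed here, so line, sort and medium cannot be told apart.

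In imprinted domains 1 parental copy of a gene is silenced. At 14q32 the non-coding RNAs MEG3, MEG8 and MEG9 and the miRNAs come from the maternal chromosome, while DLK1, RTL1 and DIO3 come from the paternal one. The miRNAs are processed from long transcripts of the maternal strand, are typical of brain, placenta and embryonic tissue, and are low or silent in many epithelial tumours. A miRNA binds its targets mainly through its seed, the bases 2 to 8 from the 5′ end.

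The mature sequences of the 11 members with 5 counts or more in a library are shown because all single-member ratios below are theirs. They were matched by name to RefSeq (GRCh38.p14), 5′ to 3′, with the seed in capitals.
miR-493-5p: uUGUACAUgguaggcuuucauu
miR-433-3p: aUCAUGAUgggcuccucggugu
miR-379-5p: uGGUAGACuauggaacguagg
miR-323a-3p: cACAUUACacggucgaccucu
miR-494-3p: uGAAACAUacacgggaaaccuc
miR-543: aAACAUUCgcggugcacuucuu
miR-495-3p: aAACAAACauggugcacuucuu
miR-381-3p: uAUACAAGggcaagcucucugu
miR-382-5p: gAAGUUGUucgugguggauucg
miR-409-3p: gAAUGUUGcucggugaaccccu
miR-369-3p: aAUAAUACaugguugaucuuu
The 11 sequences carried 11 different seeds. In the RefSeq table the seed of miR-381-3p also belonged to miR-300 of the same cluster, that of miR-379-5p to miR-3529-5p and that of miR-495-3p to miR-5688, and the count table had no row for these 3. Over the whole cluster RefSeq lists 87 mature names with 77 distinct seeds and 10 of these seeds are shared by a pair of names.

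All positions are on the plus strand of chromosome 14. The mature members span 197.7 kb, chr14:100869075-101066786, in a pair of stretches. The upstream group, mir-493 to mir-370, covers 42.1 kb, and the downstream group, mir-379 to mir-656, covers 44.7 kb, with 110.9 kb between them. By GENCODE 29 (GRCh38), all hairpins of the upstream group lie in introns of AL117190.1, a long non-coding RNA on the same strand, and mir-431, mir-433, mir-127 and mir-136 overlap an exon of RTL1 on its opposite strand. In the downstream group, mir-379 to mir-495 lie in introns of MEG8, mir-381 and mir-487b in introns of MIR381HG, and mir-541, mir-409, mir-412 and mir-369 in introns and mir-410 in an exon of MEG9.

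Annotated miRNAs summed to 5133057 counts in BT474 and to 11448022 in MDA-MB-468, which was 2.23 times as deep. A cell of the table is blank where no count was listed, the smallest listed count being 2. A blank is therefore not a measured 0. Levels are CPM, counts per 1000000 of these totals, and 3 counts correspond to 0.584 CPM in BT474 and 0.262 CPM in MDA-MB-468. With 1 library per line there is no replicate check and no test of the lines. Errors are 95% intervals for counting error only, and they treat reads as independent. Reads copied by PCR and not marked with molecular identifiers cannot be counted as independent, so the intervals can be too narrow. Epithelial miRNAs were abundant but differed in order, with miR-200c-3p at 26622 CPM in BT474 and 10434 in the other library. The values were 24579 and 50451 for miR-200b-3p, and 61.6 and 14367 for miR-205-5p. CD24 and CD44 transcripts are not measured by this assay.

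The cluster was low in both libraries and was detected mainly in BT474. Of the 47 mature members, 22 from 20 hairpins were listed in BT474 and 6 from 6 hairpins in MDA-MB-468. The members summed to 259 counts in BT474, or 50.5 CPM (Poisson interval 44.5 to 57.0), and to 41 counts in MDA-MB-468, or 3.58 CPM (2.57 to 4.86). The summed level was 14.1-fold higher in BT474 (exact conditional binomial interval 10.1 to 20.1), with blanks taken as 0. On the log2 scale, MDA-MB-468 over BT474, that is -3.82, and -2.95 with every blank of the members taken as 1 count. In bulk RNA fewer cells with the cluster on and less RNA per cell cannot be told apart.

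Listing was compared next, since most members were near the limit of detection. There were 5 members listed in both libraries, 17 in BT474 alone, 1 in MDA-MB-468 alone and 24 in neither. Among all 1130 annotated miRNAs listed in either library, 15.8% were listed in BT474 alone and 25.6% in MDA-MB-468 alone, so the direction over all miRNAs was the opposite. MDA-MB-468, the deeper library, listed 58.7% of all 1623 annotated mature miRNAs and BT474 51.8%. Of the 22 members listed in BT474, 17 were blank in MDA-MB-468, against 21.2% of the 841 miRNAs listed in BT474.

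This gap was present at the lowest counts as well. Of the 12 members with 2 to 4 counts in BT474, all 12 were blank in MDA-MB-468, against 44.8% of the 252 miRNAs of that level. Of the 3 with 5 to 9 counts, 1 was blank, against 22.9% of 83. Of the 6 with 10 to 29 counts, 4 were blank, against 19.6% of 138. Members of 1 cluster can share a transcript and are not independent, so these shares describe the libraries and carry no test.

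**Figure D1:**
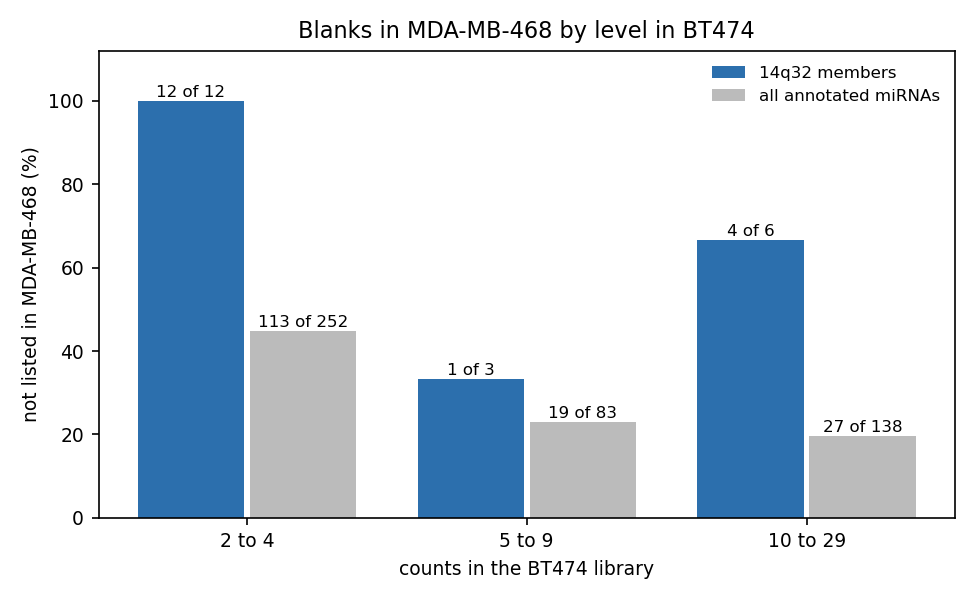
Share of miRNAs not listed in MDA-MB-468 (y axis, %) by their counts in BT474 (x axis), for 14q32 members (blue) and all annotated miRNAs (grey); labels give the numbers behind each bar. All 12 members with 2 to 4 counts in BT474 were blank in MDA-MB-468, against 113 of 252 miRNAs of that level.

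The upstream group, with fewer names, held fewer counts than the downstream group. In BT474, 6 of its 12 mature members were listed, with 29 counts in sum (5.65 CPM, 3.78 to 8.11), and in MDA-MB-468, 2 were listed, with 9 counts (0.786 CPM, 0.360 to 1.49). Its summed level was 7.19-fold higher in BT474 (3.31 to 17.3). This ratio rests largely on mir-493, with 20 of the 29 counts in BT474 and 2 of the 9 in MDA-MB-468. miR-433-3p gave the other 7 counts in MDA-MB-468, and the ratio without mir-493 was not computed. In the downstream group 16 of 35 were listed in BT474, with 230 counts (44.8 CPM, 39.2 to 51.0), and 4 in MDA-MB-468, with 32 counts (2.80 CPM, 1.91 to 3.95). There the level was 16.03-fold higher in BT474 (11.04 to 23.99). Without miR-381-3p the downstream group had 111 counts in BT474 and 7 in MDA-MB-468, fewer there than the upstream group, and its ratio was 35.4-fold (16.6 to 90.0). The intervals of both groups overlapped with it and, only between 16.6 and 17.3, without it. Such an overlap does not measure the difference between the stretches, which was not tested.

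For the hairpins opposite RTL1 a difference was not detectable at this depth. In mouse their miRNAs pair perfectly with the Rtl1 transcript and guide its cleavage. Their 4 hairpins gave 6 counts in BT474 (1.17 CPM, 0.429 to 2.54) and 7 in MDA-MB-468 (0.611 CPM, 0.246 to 1.26). The ratio was 1.91-fold towards BT474 with an interval from 0.531 to 6.64, which includes 1, and with each MDA-MB-468 blank at 1 count it was 0.956 (0.301 to 2.65), in the other direction. The BT474 counts came from miR-431-3p, miR-127-3p and miR-136-3p with 2 each, and the MDA-MB-468 counts all from miR-433-3p.

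The hairpins in MEG8 introns of the downstream group gave 60 counts in BT474 (11.7 CPM, 8.92 to 15.0) and 7 in MDA-MB-468 (0.611 CPM, 0.246 to 1.26), a 19.1-fold difference (8.73 to 49.6). Those in MIR381HG gave 121 and 25 counts, 10.8-fold higher in BT474 (6.97 to 17.3). Those in MEG9 gave 33 counts in BT474 (6.43 CPM, 4.43 to 9.03) and none listed in MDA-MB-468. The ratio was 24.5-fold against a floor of 3 counts over the group and 7.36-fold (3.54 to 16.7) with each of its 10 blank names at 1 count. Outside these genes 3 of 16 downstream hairpins had rows, mir-654, mir-382 and mir-134. They gave 16 counts in BT474 (3.12 CPM, 1.78 to 5.06) and none listed in MDA-MB-468. The ratio was 11.9-fold against the same floor and 5.95-fold (2.21 to 18.6) with their 6 blank names at 1 count. With each MDA-MB-468 blank at 1 count the ratio for the MEG8 introns fell to 7.04-fold (4.14 to 12.5) and that for MIR381HG was 9.64-fold (6.35 to 15.1). All 4 stretches of the downstream group were higher in BT474 past their counting error under both settings. These sums are not separate from the single members below. In BT474 miR-381-3p gave 119 of the 121 counts in MIR381HG, where 2 of 6 hairpins had rows. miR-382-5p gave 12 of the 16 counts outside these genes.

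**Figure D2:**
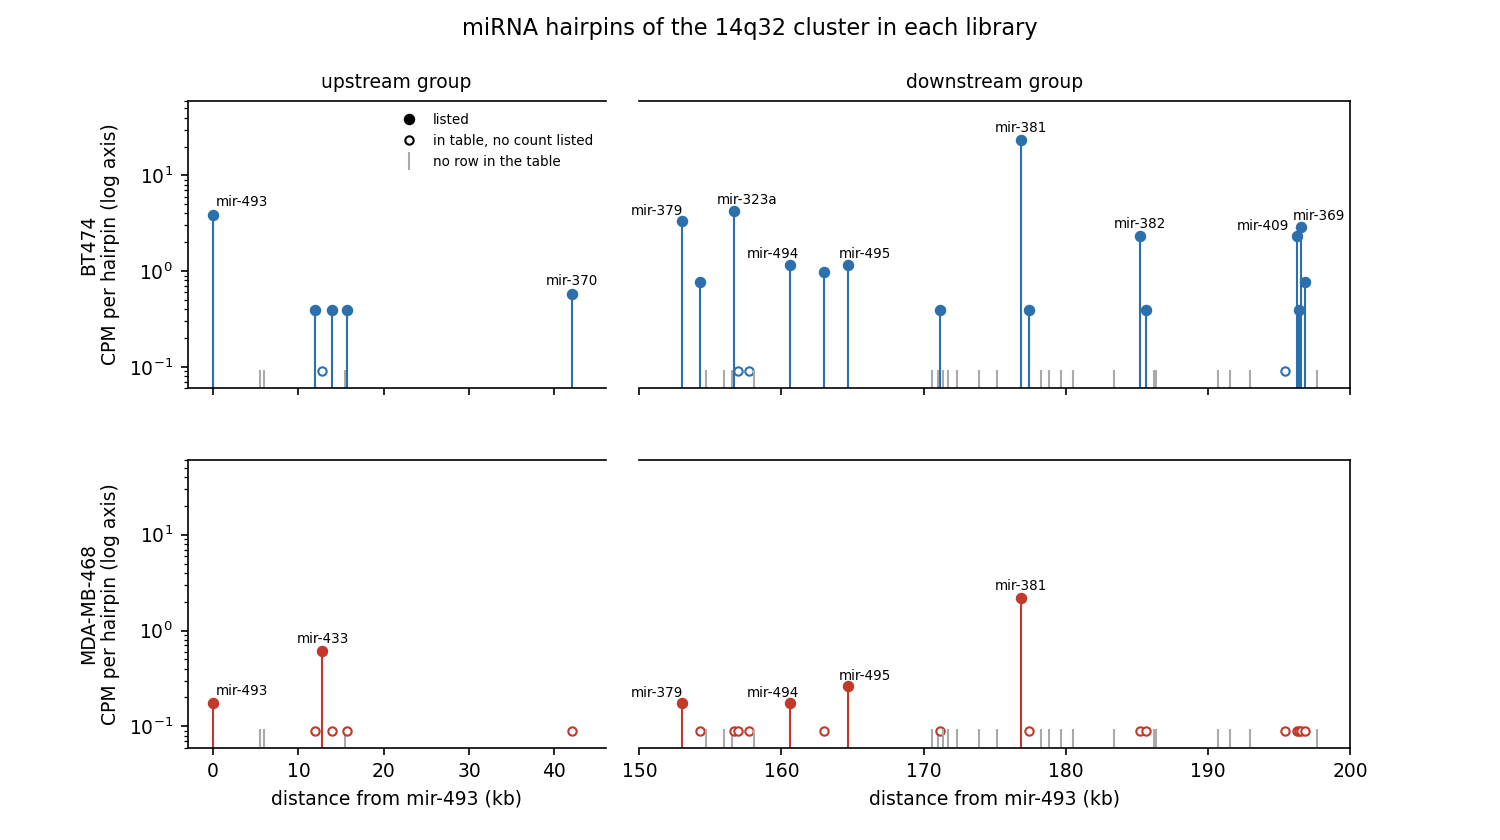
Level of each hairpin (both arms summed, CPM, log axis) against its distance in kb from the first mature base of mir-493, in BT474 (upper panels, blue) and MDA-MB-468 (lower panels, red); open circles are hairpins with rows but no listed count and grey ticks hairpins with no row. BT474 shows counts for 20 hairpins over both stretches, and MDA-MB-468 for 6, with mir-381 the highest in each.

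Single members were compared where a library held at least 10 counts, the rule for an eligible miRNA. A member was called where its level differed at least 2-fold and the interval of the ratio excluded 1. All 7 eligible members were called higher in BT474 and none higher in MDA-MB-468. By the same rule 28.3% of all 690 eligible miRNAs were called higher in BT474 and 32.9% higher in MDA-MB-468. The 7 became eligible through their BT474 counts, and only miR-381-3p reached 10 counts in MDA-MB-468, so they were drawn from the side where they were high. Among the 506 miRNAs with at least 10 counts in BT474, 38.5% were called higher there and 9.09% were blank in MDA-MB-468. Of the 7 members 4 were blank.

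miR-381-3p, from hsa-mir-381, was the most abundant member in both libraries, with 119 counts in BT474 and 25 in MDA-MB-468. Its level was 23.2 CPM in BT474 (19.2 to 27.7) and 2.18 CPM in MDA-MB-468 (1.41 to 3.22), 10.6-fold higher in BT474 (6.85 to 17.1). It took 45.9% of the cluster's counts in BT474 (Clopper-Pearson interval 39.8 to 52.2) and 61.0% in MDA-MB-468 (44.5 to 75.8). Even so it ranked 245th of the 841 miRNAs listed in BT474 and 459th of the 952 in MDA-MB-468. Without it the cluster's summed level was 27.3 CPM in BT474 and 1.40 in MDA-MB-468, 19.5-fold higher in BT474 (11.6 to 35.1). Its mature form lies at chr14:101045968-101045989.

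A pair of members at the 2 starts of the stretches had 2 counts each in MDA-MB-468. miR-493-5p, the first member of the upstream group (chr14:100869075-100869096), had 18 counts in BT474 (3.51 CPM, 2.08 to 5.54) and 0.175 CPM in MDA-MB-468 (0.0212 to 0.631). The ratio was 20.1-fold towards BT474, with a counting interval from 4.81 to 178. miR-379-5p, the first of the downstream group (chr14:101022071-101022091), had 17 counts in BT474 (3.31 CPM, 1.93 to 5.30) and the same 0.175 CPM in MDA-MB-468. Its ratio was 18.96-fold (4.5 to 169). For both the interval is wide because it rests on these 2 counts.

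The other 4 eligible members were not listed in MDA-MB-468, so each fold was taken against 3 counts there, before counting error. The lower limit given with each includes counting error and takes the blank as 0. miR-323a-3p (chr14:101025782-101025802) had 22 counts in BT474 (4.29 CPM, 2.69 to 6.49), 16.4-fold higher (lower limit 12.22). miR-369-3p (chr14:101065641-101065661) can raise translation of the TNF transcript on cell-cycle arrest in human cells. It had 15 counts in BT474 (2.92 CPM, 1.64 to 4.82), 11.1-fold higher (lower limit 7.999). miR-382-5p (chr14:101054316-101054337) had 12 counts (2.34 CPM, 1.21 to 4.08), 8.92-fold higher (lower limit 6.197). miR-409-3p (chr14:101065346-101065367) had 10 counts (1.95 CPM, 0.934 to 3.58), 7.43-fold higher (lower limit 4.999). With the authors' normalized values, rounded to whole numbers, miR-382-5p and miR-409-3p stood at 1 in BT474 and blank in MDA-MB-468 and lost the call.

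Over the 7 eligible members the log2 ratio, MDA-MB-468 over BT474, ran from -4.33 to -2.89 with a median of -3.48, beside a median of 0.30 over all eligible miRNAs. The median member, miR-369-3p, is one with a blank set at 3 counts. All 7 were eligible through their BT474 counts, whereas the 690 miRNAs passed through either library. The rule thus favoured a lean of the members towards BT474, and the medians are described only. With the authors' normalized values the median was -1.0, beside 0.0 over all miRNAs.

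**Figure D3:**
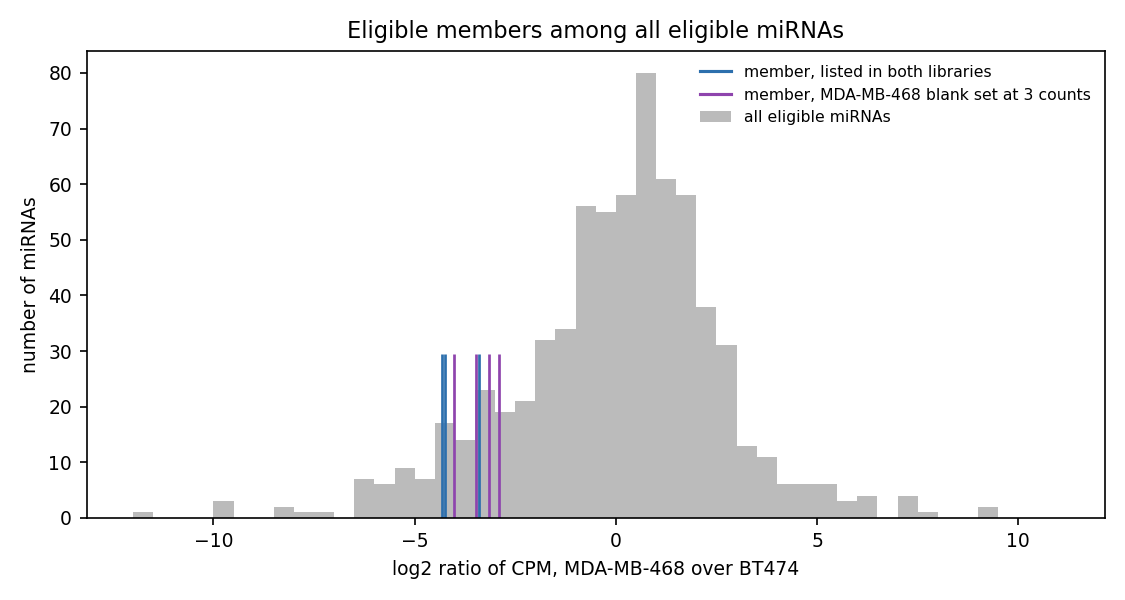
Distribution of log2 ratios of CPM, MDA-MB-468 over BT474 (x axis), over all 690 eligible miRNAs (grey, y axis: number of miRNAs), with the 7 eligible 14q32 members as vertical lines, blue where listed in both libraries and purple where the MDA-MB-468 blank was set at 3 counts. The members lie between -4.33 and -2.89, and the median over all is 0.30. All 7 members were eligible through their BT474 counts, which favours ratios towards BT474.

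Members with 5 to 9 counts were too few to be called, and 3 of the 4 were again more abundant in BT474. miR-494-3p had 6 counts in BT474 (1.17 CPM, 0.429 to 2.54) and 2 in MDA-MB-468 (0.175 CPM), a ratio of 6.69 (1.20 to 67.8). miR-495-3p had 6 counts in BT474 and 3 in MDA-MB-468 (0.262 CPM, 0.0540 to 0.766), a ratio of 4.46 (0.953 to 27.6) whose interval includes 1. miR-543 had 5 counts in BT474 (0.974 CPM, 0.316 to 2.27) and was blank in MDA-MB-468. Against 3 counts there it was 3.72-fold higher in BT474 (lower limit 2.04 with the blank taken as 0). miR-433-3p, reported to repress the growth factor FGF20 and encoded opposite RTL1 at chr14:100881949-100881970, was the only member listed in MDA-MB-468 alone, with 7 counts (0.611 CPM, 0.246 to 1.26). In BT474 it was blank, where 3 counts would be 0.584 CPM, so a difference was not detectable at this depth.

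The remaining 12 listed members had 2 to 4 counts, all in BT474. miR-411-5p and miR-410-5p had 4 each and miR-370-3p had 3. The other 9 had 2 counts each, or 0.390 CPM (0.0472 to 1.41). They included miR-127-3p, which targets BCL6, and miR-134-5p, which in rat neurons represses the kinase Limk1 in dendritic spines. At such counts a level cannot be told from that of its neighbours. The hairpins mir-758, mir-329-1 and mir-541 had rows but no listed count in either library.

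**Figure D4:**
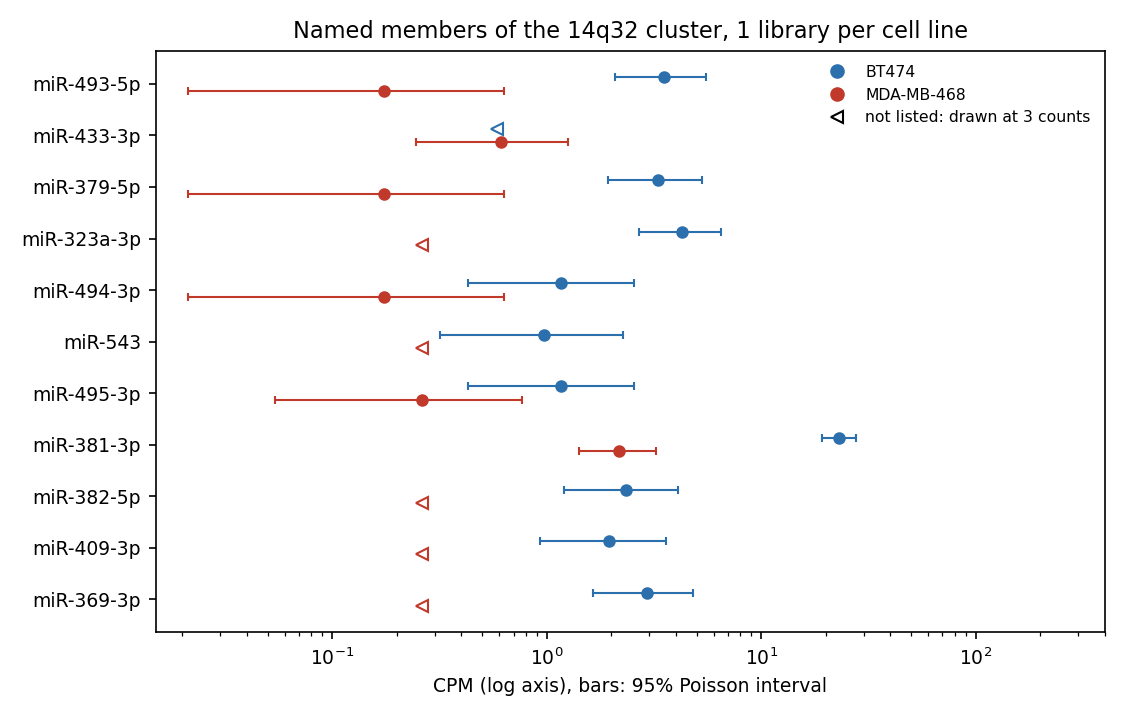
CPM (x axis, log axis) of the 11 members with 5 counts or more in a library, in BT474 (blue) and MDA-MB-468 (red), in genomic order from mir-493 at the top; bars are 95% Poisson intervals and open triangles mark blanks, drawn at 3 counts. The intervals of both libraries do not overlap for miR-493-5p, miR-379-5p and miR-381-3p, the eligible members listed in both.

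Most hairpins showed 1 arm only. Of the 21 hairpins with a listed arm, 19 had 1 arm listed, the 3p arm in 13 and the 5p arm in 6, and only mir-493 and mir-409 had both. The 3p arms held 76.4% of the cluster's counts in BT474 (70.8 to 81.5) and 90.2% in MDA-MB-468 (76.9 to 97.3), which includes the share of miR-381-3p. For mir-381 all 119 counts in BT474 and all 25 in MDA-MB-468 were of the 3p arm, with upper Clopper-Pearson limits of the 5p share of 3.05% and 13.7%. For mir-323a all 22 counts in BT474 were of the 3p arm. For mir-493 the 5p arm took 18 of 20 counts in BT474, or 90.0% (68.3 to 98.8), and both counts in MDA-MB-468 were of the 5p arm.

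The hairpins hsa-mir-493 and hsa-mir-379 show the arms behind these counts (RefSeq, GRCh38.p14, plus strand), with the mature arms that had counts in capitals. Both arms are marked in mir-493 (chr14:100869060-100869148), and only the 5p arm in mir-379 (chr14:101022066-101022132), whose 3p arm was blank in both libraries.
mir-493: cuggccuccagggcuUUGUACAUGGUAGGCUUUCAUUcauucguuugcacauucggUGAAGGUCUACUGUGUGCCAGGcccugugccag
mir-379: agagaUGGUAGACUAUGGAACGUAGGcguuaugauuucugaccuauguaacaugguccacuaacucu

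The cluster was set beside other miRNAs of imprinted loci, to see whether they leaned the same way. C19MC, an imprinted cluster of placental miRNAs, had 28 of 42 mature names listed in MDA-MB-468 and 2 in BT474, the opposite direction to 14q32. Over all 1623 annotated miRNAs, 58.7% were listed in MDA-MB-468 and 51.8% in BT474. Against these shares C19MC departed mainly by its few names in BT474, and 14q32 mainly by its few names in MDA-MB-468. Their sum was 5 counts (0.974 CPM) in BT474, beside 226 counts (19.7 CPM) in MDA-MB-468. Many of them had 2 counts in the deeper library, a CPM of 0.175 that lies under the BT474 floor, so their listing there moves with depth. Its highest members in MDA-MB-468 were miR-516a-5p with 44 counts against 3 and miR-522-3p with 31 against 2. Of its 7 eligible members 6 were called higher in MDA-MB-468, against 32.9% of all 690 eligible miRNAs. All 7 became eligible through their MDA-MB-468 counts, so they too were drawn from the side where they were high. Several C19MC names are near-identical and can share reads. Of the single imprinted loci, mir-483 in IGF2 and mir-675 in H19 were listed in BT474 alone. miR-483-3p had 29 counts there and miR-675-5p had 13. Against 3 counts in MDA-MB-468 they were 21.6-fold and 9.66-fold higher in BT474, before counting error. miR-296-3p, of the GNAS locus, had 404 CPM in BT474 and 0.437 in MDA-MB-468, whereas miR-335-3p, of MEST, had 630 and 972 CPM and was not called. No test of a difference between these loci and 14q32 is possible with 1 library per line.

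**Figure D5:**
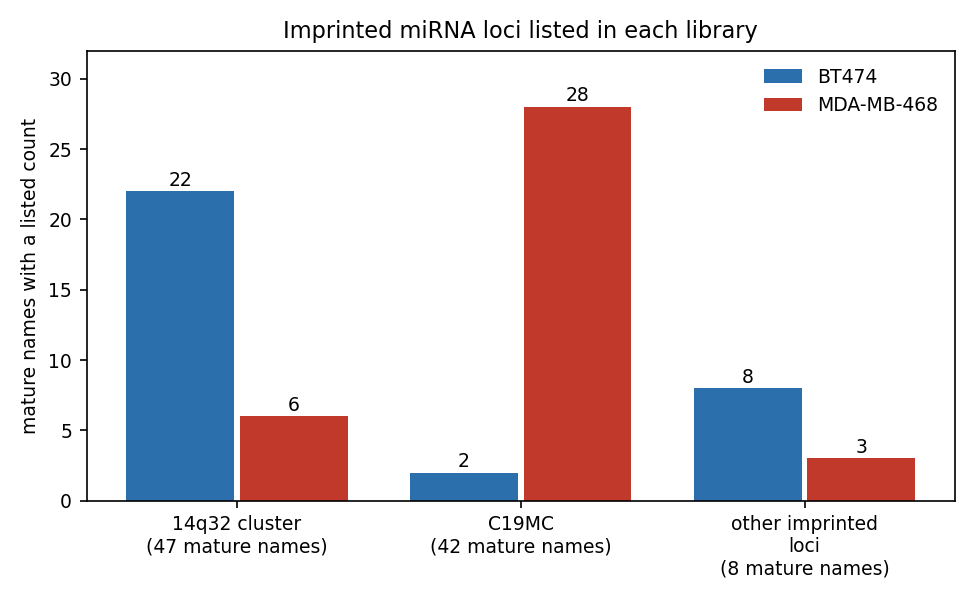
Number of mature names with a listed count (y axis) in BT474 (blue) and MDA-MB-468 (red) for the 14q32 cluster, C19MC and the other imprinted loci mir-335, mir-296, mir-483 and mir-675 (x axis). The 14q32 cluster had 22 names in BT474 and 6 in MDA-MB-468, and C19MC had 2 and 28. Over all 1623 annotated miRNAs, 51.8% were listed in BT474 and 58.7% in MDA-MB-468.

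Of 9 names from neighbouring 14q32 hairpins outside the cluster, 6 had counts, in both libraries. Of these 6, 3 were called higher in BT474 and none higher in MDA-MB-468, against 28.3% and 32.9% of all 690 eligible miRNAs. miR-342-3p, from an intron of EVL, had 1300 CPM in BT474 and 228 in MDA-MB-468, 5.71-fold higher, and miR-342-5p of the same hairpin had 69.7 and 1.40 CPM, 49.9-fold higher. miR-345-5p had 221 and 62.8 CPM, 3.52-fold higher. miR-203a-3p, a miRNA of epithelial differentiation, had 3404 and 1888 CPM and was not called, nor were miR-151b at 8.77 and 10.2 CPM and miR-203b-3p at 1.17 and 2.10 CPM.

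Since the cluster is active in stromal, neural and other non-epithelial cells, markers of such cells were read beside it. Mesenchymal and stromal markers summed to 180 in BT474 and 375 in MDA-MB-468, in CPM, with 5 of 5 names listed in BT474 and 4 in MDA-MB-468. By the same rule miR-143-3p, at 158 and 354 CPM, and miR-145-5p, at 6.23 and 13.98 CPM, were called higher in MDA-MB-468. miR-199a-3p, at 12.1 and 2.88 CPM, was called higher in BT474, and miR-199a-5p, at 3.12 and 3.76 CPM, was not called. The defining miR-214-3p had 2 counts in BT474 and was blank in MDA-MB-468. The sum of blood markers was 47.7 CPM in BT474 and 26.8 CPM in the other library, with 6 and 5 of 6 names listed. Of its 4 eligible names 3 were called higher in BT474, as the cluster was, and none higher in MDA-MB-468. These were miR-142-3p, at 15.78 and 7.687 CPM, miR-451a, at 5.844 and 2.009 CPM, and miR-486-5p, at 11.49 and 5.678 CPM. miR-142-5p, at 13.83 and 11.27 CPM, was not called, and the defining miR-223-3p had 2 counts in each library. Neuron markers summed to 2165 and 1811 CPM, with 3 and 2 of 3 names listed, and miR-124-3p had no row. Most of that sum was miR-128-3p, at 1768 and 1609 CPM, followed by miR-9-5p, at 397 and 202 CPM, and neither was called. miR-219a-5p had 2 counts in BT474 and was blank in MDA-MB-468. The part of such cells in the cluster's counts was not tested.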

How the data were processed

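Small RNAs of 15 to 35 nt were read for 51 cycles on an Illumina HiSeq, per the labels' protocols. The authors deposited raw tag counts per mature miRNA and precursor, over all isoforms per the file headers, and, in a second table, normalized scores rounded to whole numbers, whose scaling is not stated. The submitters' processing notes name Novoalign 2.07.11, while the build, miRNA release and counter were not given in the sources used here. A column headed MAD-MB-468 was taken for MDA-MB-468.

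Predicted candidates (384 of 2121 rows) stayed out of totals. A mature name on several precursors took its largest count, and miR-199a-3p and miR-199b-3p were merged, leaving 1623 miRNAs. CPM, Poisson, Clopper-Pearson and conditional binomial intervals were computed with Python 3.11.15 and scipy 1.17.1, and the ratio and call were tested on simulated data. A blank was set at 3 counts in ratios. Members reaching 10 counts in either library were compared and named, and those with 5 to 9 counts named. Members and lists were chosen with earlier results of these data known, and the split by BT474 count and by host gene after the values were seen. Alternatives covered scaling, blanks, the count minimum, precursors, arms and the normalized table.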

Additional observations from a re-analysis of the deposited data

How the results depend on the processing

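The direction was kept in every alternative run for the cluster's summed level, whose log2 ratio of -3.82 (MDA-MB-468 over BT474) ran from -4.29 to -3.54, except that blanks taken as 1 count gave -2.95. The number of members listed moved from 22 to 13 in BT474 and from 6 to 2 in MDA-MB-468 when both were held to the CPM of 3 BT474 counts, and to 10 and 2 in the authors' normalized values. The 7 called members became 11 of 23 with no count minimum and 1 of 1 with at least 50 counts. More or fewer members were eligible there, and 5 were called with the normalized values. Over all miRNAs the shares called higher in BT474 were, in the same order, 21.3% of 1130, 24.8% of 416 and 28.5% of 643. The members' median log2 ratio of -3.48 became -1.57 with no count minimum, beside -0.57 over all miRNAs, and -1.0 with the normalized values, whose blanks were set at 1. No member was called higher in MDA-MB-468 under any of these. Over 49 recomputed ratios of the 7 members 47 kept the call. The 2 that lost it were miR-382-5p and miR-409-3p at 0.0 with the normalized values. For those values the call used the 2-fold limit without an interval, and miR-379-5p and miR-369-3p stood exactly at that limit, at -1.0. Blanks at 1 count could only enlarge these ratios or leave them unchanged, so that setting could not remove a call. Scaling without the 10 most abundant miRNAs or to the upper quartile moved the median of all miRNAs by -0.21 and median-of-ratios by 0.16. Under that first pair the log2 ratio of miR-433-3p, with its BT474 blank set at 3 counts, went from 0.07 to -0.14, and it was 1.65 with that blank at 1 count. For the sums by host gene, each MDA-MB-468 blank was also set at 1 count, chosen after seeing the data, and the ratio of the hairpins opposite RTL1 (BT474 over MDA-MB-468) turned from 1.91 to 0.96. The 5p share of mir-493 in BT474 became 100% with the normalized values. No paired analysis was possible because each line has 1 library. Depth limits most members: 12 of 23 listed had 2 to 4 counts.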
